A study of Mus musculus with 2 samples.

Results

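The enzymes that attach glucuronic acid, glutathione or sulfate to other molecules were examined in cells from fibrotic mouse liver, as all protein-coding genes of the deposited tables with a symbol that begins with Ugt1, Ugt2 or Ugt3, with Gst, a letter and a digit, with Mgst and a digit, or with Sult and a digit. This gave 65 of 36458 gene symbols. They were 20 UDP-glucuronosyltransferases (UGT), 22 glutathione S-transferases with a Gst symbol (GST), 3 microsomal glutathione S-transferases (MGST) and 20 sulfotransferases (SULT). The GSTs are of the cytosolic classes, apart from Gstk1, which is found in mitochondria and peroxisomes. The rule itself reads names only. The data came from 2 RNA-seq libraries, 1 for each genotype. Foxf1 fl/fl littermates (labelled wild-type, below called control) were set against αSMACreER;Foxf1-/- mice (labelled αSMACreER;Foxf1 fl/fl, knockout), in which tamoxifen activates a Cre recombinase driven by the smooth muscle actin promoter and deletes Foxf1 from actin-positive myofibroblasts. All mice were adult C57/Bl6 males given carbon tetrachloride (CCl4), a hepatotoxin, for 5 weeks. Liver cells were left on culture dishes for 2 hours, the adherent cells were kept, and their RNA was pooled within a genotype. Whether the control mice of the RNA-seq also received tamoxifen is unclear from the sources used here. Foxf1 itself was not analysed here. With 1 pooled library per genotype there was no replicate spread, so no p-value is given anywhere. Values are FPKM, fragment numbers divided by transcript length and by the mapped total of the library, as deposited.

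The labels call the cells stromal, and markers of several cell types were checked first. Hepatocyte markers were abundant: 7 of the 8 listed were measured, and their summed FPKM was 3963 in the control and 1502 in the knockout. All 7 were lower in the knockout library by the threshold defined below, beside 13.2% of all genes compared. The most abundant of them was Alb, serum albumin, at 2292 FPKM in the control and 912 FPKM in the knockout. Macrophage markers summed to 5132 and 4217 FPKM, led by Cd5l at 1391 and 1122 FPKM, and the Kupffer cell lectin Clec4f had 1117 and 753 FPKM, a log2 fold change of -0.60 (-0.57 with values as deposited), at the edge of the threshold defined below. The 8 stellate cell and myofibroblast markers summed to 189 FPKM in the control and 269 FPKM in the knockout, led by the collagen gene Col1a2 at 102 and 151 FPKM. Of the markers that define stellate cells most closely, Lrat stood at 0.0778 and 0.111 FPKM and Reln at 0.683 and 0.313 FPKM, Des was higher in the knockout (1.70 and 3.29 FPKM), and Acta2, the actin of the Cre promoter, stood at 7.77 and 5.65 FPKM. All 4 neutrophil markers were lower, beside the same 13.2% of all genes, with sums of 1901 and 762 FPKM. S100a9 was the most abundant (1258 and 504 FPKM), and Ly6g stood at 9.82 FPKM in the control and was listed at 0 in the knockout. The 6 endothelial markers summed to 615 and 607 FPKM with Clec4g leading (254 and 187 FPKM). Of these 6, 5 had a log2 fold change above 0 and only Clec4g one below 0 (median 0.18). The 5 cholangiocyte markers summed to 58.0 and 49.7 FPKM with Krt19 leading (39.7 and 29.5 FPKM), and the 4 B and T cell markers to 79.8 and 68.8 FPKM, with Cd3g leading (39.7 and 25.5 FPKM). Both of the latter lists held genes above and below 0. The libraries therefore held much hepatocyte and macrophage RNA. All measured genes of the hepatocyte and neutrophil lists moved in the same direction as most conjugation enzymes below. Of the 8 macrophage markers, 7 also had a log2 fold change below 0 (median -0.33), and 1 (12.5%, near the 13.2% of all genes) was lower. Of the 6 stellate cell and myofibroblast markers with a mean of at least 1 FPKM, 4 lay above 0 and 2 below 0. The part of these cell types in the enzyme values was not tested. In such bulk RNA, fewer cells of a type and less RNA per cell cannot be told apart.

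UGTs lie in the membrane of the endoplasmic reticulum and transfer glucuronic acid from UDP-glucuronic acid to bilirubin, bile acids, steroids and drugs. GSTs join the tripeptide glutathione to electrophiles such as lipid peroxidation products, and SULTs use PAPS, the activated form of sulfate, to sulfate phenols, steroids and bile acids. These reactions make molecules more water-soluble for export into bile or blood, and hepatocytes are the cells best known for them.

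The Ugt1a genes are shown first because their reads are hard to tell apart. In GENCODE M21 (GRCm38) 9 Ugt1a genes lie on the plus strand of chromosome 1, each with a first exon of its own that is spliced to the same exon 2 at chr1:88215044-88215175. Exons 2 to 4 are identical in all 9 transcripts and hold 440 bases. The junctions below give the last 24 bases of the first exon in lower case and the first 24 bases of the shared exon 2 in capitals, for the 5 genes that passed the filter on low values. A read of 75 bases that lies wholly in exons 2 to 4 fits all 9 genes.
Ugt1a1 (first exon part chr1:88212848-88212871): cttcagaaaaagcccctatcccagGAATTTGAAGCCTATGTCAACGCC
Ugt1a9 (first exon part chr1:88071655-88071678): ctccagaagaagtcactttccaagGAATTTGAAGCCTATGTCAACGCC
Ugt1a6b (first exon part chr1:88107776-88107799): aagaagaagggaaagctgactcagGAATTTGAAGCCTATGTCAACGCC
Ugt1a6a (first exon part chr1:88139308-88139331): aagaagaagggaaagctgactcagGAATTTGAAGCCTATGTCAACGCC
Ugt1a7c (first exon part chr1:88095955-88095978): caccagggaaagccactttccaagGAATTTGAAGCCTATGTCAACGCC
The lines of Ugt1a6a and Ugt1a6b are identical. The annotation adds a further overlap, since 1 of the 4 transcripts assigned to Ugt1a7c holds, ahead of exon 2, an 859-base exon at chr1:88138473-88139331 that also belongs to Ugt1a6a and ends where the Ugt1a6a line above begins its capitals. The same transcript starts with a 127-base exon that also belongs to Ugt1a6b. Every stretch of 75 bases in the longest coding Ugt1a6a transcript (2297 bases) also occurs in a Ugt1a7c transcript. The Ugt1a6a line above comes from a different transcript, with a 954-base first exon (chr1:88138378-88139331). That first exon starts ahead of the 859-base exon, so its first bases lie outside the annotated exons of Ugt1a7c. In the longest coding transcripts of Ugt1a1, Ugt1a6b, Ugt1a8 and Ugt1a9, between 58.7% and 78.8% of such stretches are shared with another gene. Ugt1a7c alone has a last exon that runs 1005 bases past the end of that of Ugt1a1.

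A gene was counted as lower or higher when its scaled value on the log2(FPKM + 0.1) scale differed by at least 1.5-fold between the libraries, which is the size named in the methods of the study. Fold changes below are knockout minus control on this log2 scale, after division of the knockout FPKM by 1.02, and they understate the change of genes near 0. The intervals given are approximate 95% Clopper-Pearson counting intervals from library sizes estimated at about 9600000 and 11320000 reads. They hold counting error only and no spread between mice.

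Most conjugation enzymes were lower in the knockout library. Of the 65 genes, 42 had a mean of at least 1 FPKM, and 34 of these 42 were lower, none was higher and 8 lay between, where 13.2% of the 12692 genes compared were lower (1678 genes) and 12.8% were higher (1624 genes). With both libraries set to equal FPKM sums instead, 1130 of all genes were lower and 2690 higher, and 28 of the 42 were lower, without Gstk1, Gstm4, Gstt3, Mgst2, Ugt1a1 and Ugt2b1. With a pseudocount (the value added before log2) of 1 in place of 0.1, 32 of the 42 were lower, without Gsto2 and Ugt2b1. In that setting 10.7% of all genes were lower. In the main setting, the median log2 fold change of the 42 genes was -0.98, from -2.55 for Ugt3a1 to 0.35 for Sult1d1. The median of all genes compared was 0.0050. The counting interval lay below 0 for 32 of the 34 lower genes, and reached above 0 for Gsto2 and Mgst2. All 65 genes together summed to 1348 FPKM in the control and 727 FPKM in the knockout, or 0.191% and 0.115% of the FPKM of all genes. Ugt3a1 and Ugt2b35 passed the filter only through their control value. In the plot of both values of each gene, the knockout point lies to the left of the control point in 37 of the 42 rows.

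**Figure D1:**
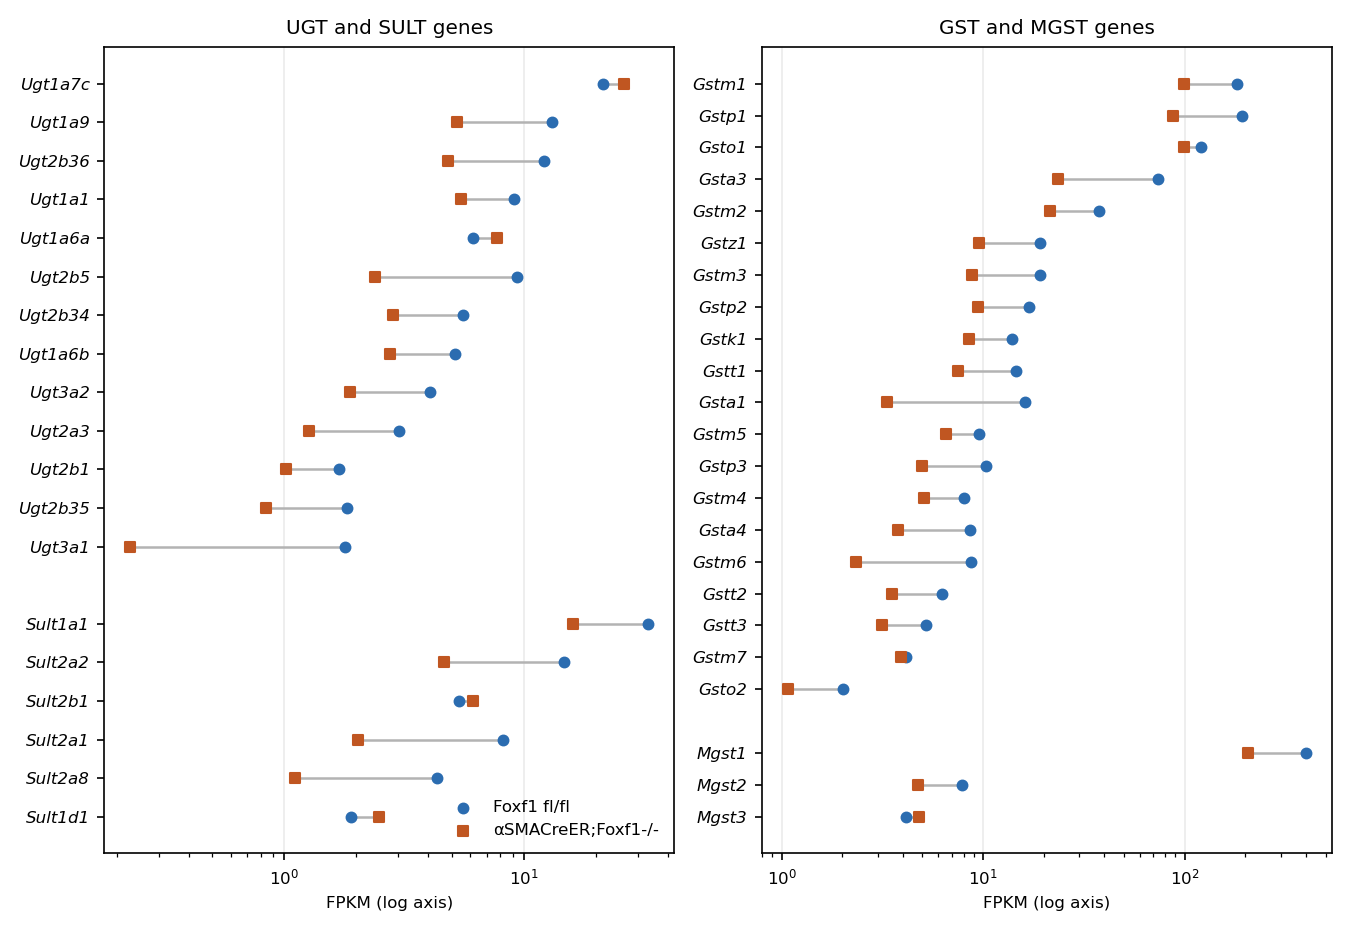
FPKM (log axis) of the 42 conjugation genes with a mean of at least 1 FPKM, UGT and SULT genes on the left and GST and MGST genes on the right, with circles for the Foxf1 fl/fl library and squares for the αSMACreER;Foxf1-/- library joined by a line. The knockout point is the lower one in every row except Ugt1a7c, Ugt1a6a, Sult2b1, Sult1d1 and Mgst3.

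The remaining 23 genes had a mean below 1 FPKM. Of these, 11 were listed at 0 in both libraries, or below 1e-06 FPKM for Ugt1a2 and Ugt1a10, namely Gstt4, Sult1c1, Sult2a4, Sult2a6, Sult2a7, Sult3a1, Sult3a2, Ugt1a2, Ugt1a10, Ugt2a2 and Ugt2b38. Sult2a5 (0.635 FPKM) and Ugt2b37 (0.251 FPKM) were measured in the control and listed at 0 in the knockout, and Sult2a3 was listed at 0 in the control and at 0.117 FPKM in the knockout. The others were Gsta2, Ugt1a5 and Ugt1a8, described below, and 6 sulfotransferases between 0.0523 and 0.643 FPKM. Sult1e1, the estrogen sulfotransferase, stood at 0.0998 and 0.0950 FPKM, about 1 estimated read in each library.

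By class, 11 of 13 UGTs passing the filter were lower (median log2 fold change -1.07), as were 17 of 20 GSTs (-0.88), 2 of 3 MGSTs (-0.74) and 4 of 6 SULTs (-1.37). After removal of the length trend described below, 10 of 20 GSTs were lower, beside 11.1% of all genes. With equal FPKM sums the MGST median was -0.55, short of 1.5-fold. Summed FPKM in control and knockout was 96.3 and 64.0 for UGTs, 769 and 414 for GSTs, 413 and 215 for MGSTs, and 70.0 and 34.1 for SULTs. The differences between the class medians were not tested, and the plot by class shows that the ranges of the classes overlap.

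**Figure D2:**
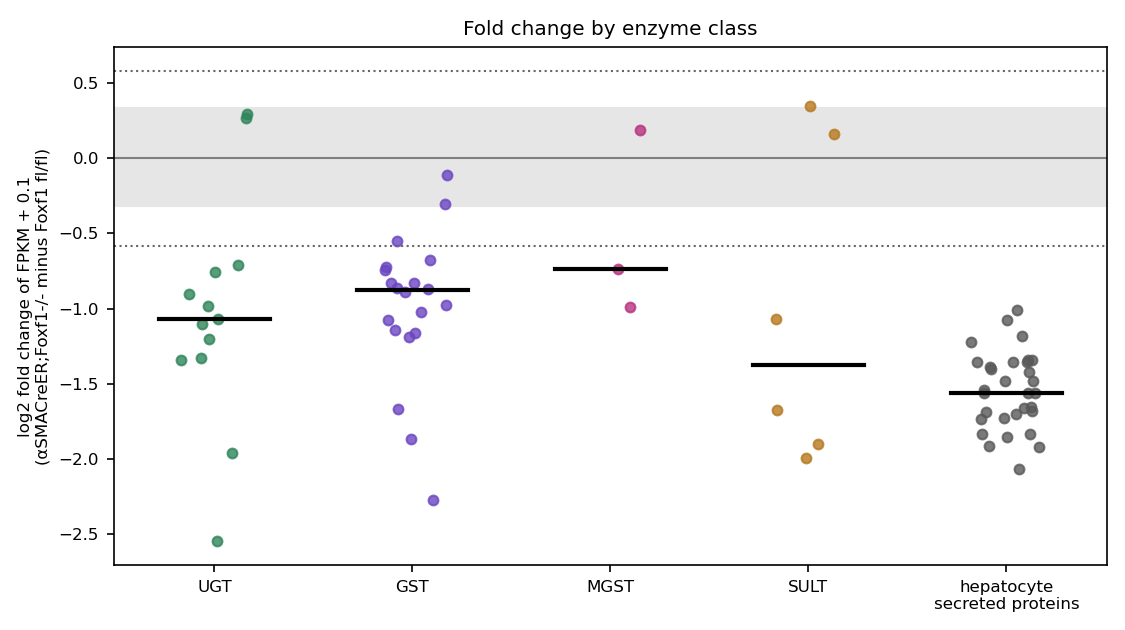
Log2 fold change (knockout minus control, log2(FPKM + 0.1)) of each conjugation gene with a mean of at least 1 FPKM by class, beside 31 hepatocyte secreted proteins, with bars for medians, dotted lines at 1.5-fold and a grey band for the interquartile range of all genes (-0.32 to 0.33). All classes have medians below the lower dotted line, and their ranges overlap.

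The Ugt1a locus was split. Ugt1a9, which conjugates phenols, was lower in the knockout library, with 13.2 FPKM in the control and 5.29 FPKM in the knockout (log2 fold change -1.33, interval -1.67 to -1.03). Ugt1a1, the bilirubin-conjugating enzyme, was also lower, with 9.16 FPKM in the control and 5.48 FPKM in the knockout (-0.76, -1.10 to -0.43), although not at equal FPKM sums (-0.57). Ugt1a6b, a phenol-conjugating enzyme, had 5.15 and 2.76 FPKM (-0.90, -1.39 to -0.46). These 3 entries thus had the same direction. Ugt1a7c, the most abundant UGT entry, had 21.4 FPKM in the control and 26.3 FPKM in the knockout (0.27, 0.12 to 0.42), and Ugt1a6a had 6.16 and 7.72 FPKM (0.30, -0.039 to 0.64), so neither passed 1.5-fold. Ugt1a5 lay below the filter with 1.07 and 0.704 FPKM, as did Ugt1a8 with 0.312 and 0.420 FPKM. The summed FPKM of Ugt1a1, Ugt1a5, Ugt1a6b and Ugt1a9 was 28.6 in the control and 14.2 in the knockout, 2.04-fold lower after scaling. The sum of Ugt1a6a and Ugt1a7c was 27.6 in the control and 34.0 in the knockout. Both sums group entries by the direction of their own values, and Ugt1a8 is in neither. The contrast between them therefore follows from the grouping and adds nothing to the single values. Over all 9 entries the locus summed to 56.5 and 48.7 FPKM, 1.18-fold lower, which is within the 1.5-fold threshold. Because exons 2 to 4 are common to all entries and Ugt1a6a and Ugt1a7c share a further annotated exon, how the reads were divided among the entries is uncertain. Levels of single Ugt1a genes therefore rest on the division of reads by Cufflinks, while the locus sum depends on it less.

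**Figure D3:**
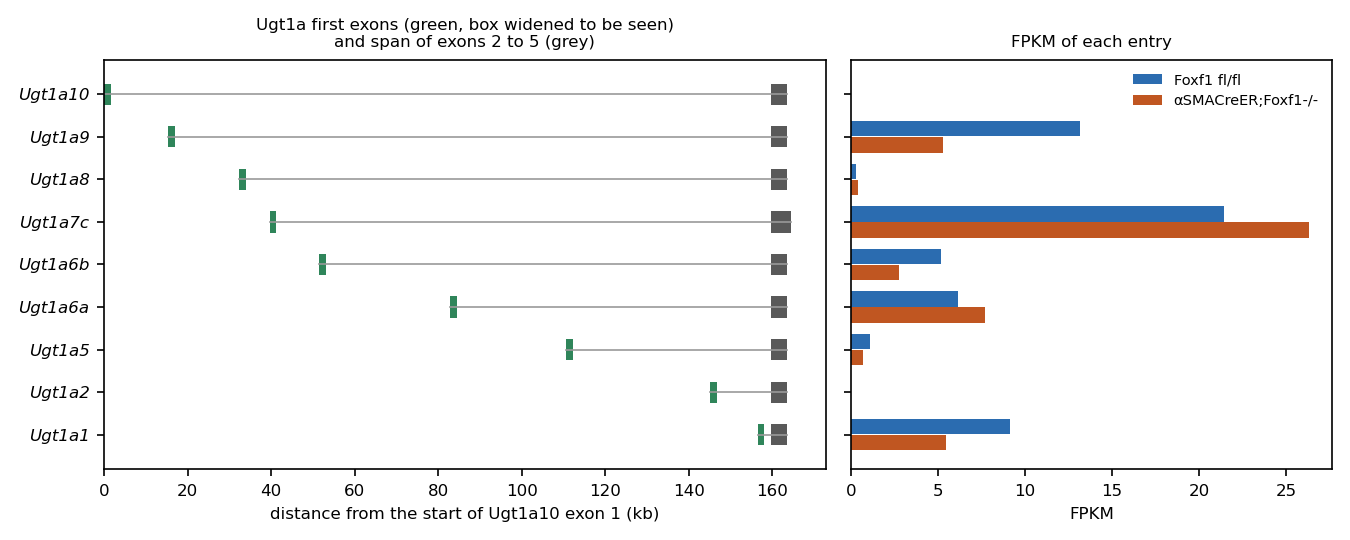
Left, position of the first exon (green) and of exons 2 to 5 (grey) of each Ugt1a gene in kilobases from the start of Ugt1a10 exon 1, and right, FPKM of each entry in the Foxf1 fl/fl (blue) and αSMACreER;Foxf1-/- (orange) libraries. Ugt1a9, Ugt1a6b, Ugt1a5 and Ugt1a1 have the longer bar in the control, and Ugt1a7c, Ugt1a6a and Ugt1a8 in the knockout.

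The UGT2 enzymes, which conjugate steroids, bile acids and many drugs, were lower without exception among the 6 that passed the filter, with a median log2 fold change of -1.14 and summed FPKM of 34.0 in the control and 13.2 in the knockout. With equal FPKM sums or a pseudocount of 1, Ugt2b1 was no longer lower. Ugt2b36 was the most abundant, with 12.2 FPKM in the control and 4.82 FPKM in the knockout (-1.34, interval -1.74 to -1.0), and shares no 75-base stretch with another gene. Ugt2b5 had 9.42 and 2.38 FPKM (-1.96, -2.52 to -1.51), and 30.4% of its stretches are shared, chiefly with Ugt2b38, which was listed at 0 in both libraries. The other 4, Ugt2a3, Ugt2b1, Ugt2b34 and Ugt2b35, had 1.69 to 5.61 FPKM in the control and log2 fold changes between -1.20 and -0.71. Both UGT3 genes, whose human counterparts use sugars other than glucuronic acid, were lower. Ugt3a1 had 1.79 FPKM in the control and 0.227 FPKM in the knockout (-2.55, -4.78 to -1.71), from about 35 and 5 estimated reads. This is the lowest value among the 42 genes with the pseudocount of 0.1, while with a pseudocount of 1 it is -1.19 and that of Gsta1 is -2.01. Ugt3a2 had 4.08 and 1.88 FPKM (-1.10, -1.70 to -0.61).

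Of 4 genes that supply UDP-glucuronic acid, none was lower or higher, beside 13.2% and 12.8% of all genes, and their median log2 fold change was -0.11. Ugdh, which oxidises UDP-glucose to UDP-glucuronic acid, had 34.1 FPKM in the control and 47.2 FPKM in the knockout (0.44). Its value was 0.11 after removal of the length trend and 0.63, which counted as higher, with equal FPKM sums. Ugp2, which makes UDP-glucose, had 32.1 and 28.9 FPKM (-0.18), and Slc35d1, a transporter that carries UDP-glucuronic acid into the endoplasmic reticulum, had 2.46 and 2.44 FPKM (-0.03). The related transporter gene Slc35d2 had 1.98 and 1.36 FPKM (-0.53).

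The alpha class of cytosolic GSTs had a median log2 fold change of -1.67 over the 3 genes that passed the filter. Gsta3, known in mice for conjugating the epoxide of aflatoxin B1, had 74.0 FPKM in the control and 23.6 FPKM in the knockout (-1.67, interval -1.86 to -1.49), and shares no 75-base stretch with another gene. Gsta4, which conjugates the lipid peroxidation product 4-hydroxynonenal, had 8.58 and 3.78 FPKM (-1.19, -1.87 to -0.59). Gsta1 had 16.1 and 3.32 FPKM (-2.27, -3.03 to -1.69), but 86.3% of its stretches occur in other genes, chiefly the predicted gene Gm3776. Its near neighbour in sequence, Gsta2, lay below the filter with 1.16 and 0.281 FPKM and shares 46.9% of its stretches. The 4 alpha genes summed to 99.9 FPKM in the control and 31.0 FPKM in the knockout, a 3.28-fold lower sum.

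The mu class, the largest with 7 genes on chromosome 3, was uneven. Gstm1, its most abundant member, had 181 FPKM in the control and 99.8 FPKM in the knockout (-0.89, interval -0.99 to -0.78). Gstm2 had 37.4 and 21.4 FPKM (-0.83), Gstm3 had 19.1 and 8.76 FPKM (-1.14) and Gstm4 had 8.08 and 5.12 FPKM (-0.67). Gstm6 showed the largest decrease of the class, from 8.69 to 2.35 FPKM (-1.87, -2.62 to -1.27). Gstm5 with 9.49 and 6.56 FPKM (-0.55, -1.11 to -0.036) and Gstm7 with 4.16 and 3.92 FPKM (-0.11, -0.72 to 0.48) did not reach 1.5-fold. Neighbours in this cluster thus ran from little difference to more than 3-fold, while the sum of the class was 268 FPKM in the control and 148 FPKM in the knockout. After removal of the length trend described below, 2 of the 7 were lower in place of 5, beside 11.1% of all genes. Gstm1 was then at -0.54, Gstm2 at -0.48 and Gstm7 at 0.19. Between 0% and 21.6% of the stretches of these 7 genes are shared.

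The pi class is shown with its sequence because Gstp1 and Gstp2 are near copies. Both lie on the minus strand of chromosome 19 in GENCODE M21 (GRCm38), Gstp1 at chr19:4035407-4037985 and Gstp2 at chr19:4040285-4046023. Their coding sequences of 630 bases differ at 12 positions (98.1% identical), and the first 90 coding bases hold 6 of these, marked by capitals.
Gstp1: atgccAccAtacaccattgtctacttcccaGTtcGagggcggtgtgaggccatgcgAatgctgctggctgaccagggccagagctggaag
Gstp2: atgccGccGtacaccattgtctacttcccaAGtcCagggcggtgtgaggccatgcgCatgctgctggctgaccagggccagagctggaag
Of the 75-base stretches, 57.7% of those of Gstp1 and 68.2% of those of Gstp2 are shared with another gene. Gstp1 had 192 FPKM in the control and 87.5 FPKM in the knockout (-1.16, interval -1.31 to -1.02), and Gstp2 had 16.9 and 9.43 FPKM (-0.86, -1.34 to -0.39). Their sum, which depends little on how shared reads were divided between them, was 209 FPKM in the control and 96.9 FPKM in the knockout, 2.20-fold lower. Gstp3, with no shared stretch, had 10.4 and 4.96 FPKM (-1.08, -1.79 to -0.39). After removal of the length trend, Gstp2 at -0.46 was no longer lower, while Gstp1 at -0.76 and Gstp3 at -0.67 were.

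All 3 theta-class genes that passed the filter were lower. Gstt1, which acts on small halogenated compounds, had 14.6 FPKM in the control and 7.51 FPKM in the knockout (-0.97), Gstt2 had 6.26 and 3.54 FPKM (-0.83) and Gstt3 had 5.23 and 3.13 FPKM (-0.75). Gstz1, an enzyme of tyrosine breakdown, had 19.1 and 9.51 FPKM (-1.02), and Gstk1, found in mitochondria and peroxisomes, had 13.8 and 8.51 FPKM (-0.72). After removal of the length trend, Gstt3 at -0.53 and Gstk1 at -0.42 were no longer lower. Of the omega class, Gsto1, which reduces dehydroascorbate, had 121 FPKM in the control and 99.7 FPKM in the knockout (-0.30, interval -0.42 to -0.18, and 0.047 after the length trend described below is removed) and did not pass the threshold, and Gsto2 had 2.02 and 1.08 FPKM (-0.87, -2.00 to 0.12) and was no longer lower after that removal (-0.57). Gsto1 was thus the third most abundant cytosolic GST in the control library and the most nearly level of those above 100 FPKM.

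Of 8 genes of glutathione synthesis and recycling that passed the filter, 1 (12.5%, near the 13.2% of all genes) was lower and none was higher (median -0.14). The lower one was Gss, glutathione synthetase, with 14.4 FPKM in the control and 9.69 FPKM in the knockout (-0.60, interval -0.87 to -0.32), at the edge of the threshold and short of it with values as deposited (-0.57), a pseudocount of 1 (-0.55) or equal FPKM sums (-0.40). Gclc, the catalytic subunit of the rate-limiting ligase, had 17.1 and 21.2 FPKM (0.28), its partner Gclm had 32.7 and 31.4 FPKM (-0.08), and Gsr, glutathione reductase, had 50.2 and 43.9 FPKM (-0.22). Slc7a11, the cystine transporter, had 13.2 and 18.1 FPKM (0.43). Below the filter, Ggt1, which cleaves extracellular glutathione, had 1.62 and 0.356 FPKM, so its value is the lowest of this list relative to the control.

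Mgst1, a membrane-bound transferase with peroxidase activity, was the most abundant of all 65 genes, with 401 FPKM in the control and 205 FPKM in the knockout (-0.99, interval -1.07 to -0.91). Mgst2, which can also form leukotriene C4, had 7.84 and 4.75 FPKM (-0.74, -1.58 to 0.13), and Mgst3 had 4.14 and 4.81 FPKM (0.19, -0.47 to 0.84). The 4 related genes of eicosanoid synthesis, from the same protein families, were neither lower nor higher (median -0.17), beside 13.2% and 12.8% of all genes. Alox5ap, the 5-lipoxygenase activating protein, had 760.4 FPKM in the control and 594 FPKM in the knockout (-0.38, and -0.031 after removal of the length trend). Ptges, a prostaglandin E synthase, had 69.0 and 56.0 FPKM (-0.33), Ltc4s, leukotriene C4 synthase, had 30.1 and 30.4 FPKM (-0.01), and Hpgds, a sigma-class transferase that makes prostaglandin D2, had 12.8 and 16.1 FPKM (0.31).

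Sult1a1, the phenol sulfotransferase, was the most abundant SULT, with 33.3 FPKM in the control and 16.1 FPKM in the knockout (-1.07, interval -1.33 to -0.83). The Sult2a genes, which sulfate bile acids and steroids such as dehydroepiandrosterone, had larger differences. Sult2a2 had 14.7 and 4.63 FPKM (-1.68, -2.40 to -1.08), Sult2a1 had 8.22 and 2.03 FPKM (-1.99, -2.86 to -1.28), and Sult2a8 had 4.36 and 1.11 FPKM (-1.90, -2.74 to -1.35). Sult2a2 shares 47.2% and Sult2a1 19.4% of 75-base stretches with other genes, and Sult2a8 shares none. The 8 Sult2a genes summed to 27.9 FPKM in the control and 7.88 FPKM in the knockout, 3.61-fold lower. Sult2b1, which sulfates cholesterol, had 5.39 and 6.14 FPKM (0.16, -0.26 to 0.58), and Sult1d1, which sulfates catecholamines, had 1.89 and 2.49 FPKM (0.35, -0.20 to 1.0). Neither passed the threshold. Of 7 genes that make, carry or break down PAPS, 1 (14.3%, near the 13.2% of all genes) was lower and none was higher (median -0.11). The lower one was the sulfate transporter Slc26a1, with 1.32 FPKM in the control and 0.806 FPKM in the knockout (-0.68), which passed the filter only through its control value and was no longer lower with a pseudocount of 1 (-0.38) or equal FPKM sums (-0.50). The PAPS synthases Papss1 with 9.40 and 9.01 FPKM (-0.09) and Papss2 with 7.37 and 7.95 FPKM (0.08) lay near 0. The most abundant was Slc35b2, the PAPS carrier of the Golgi, with 29.3 and 26.3 FPKM (-0.19), and the highest fold change was that of Impad1, a Golgi phosphatase, with 4.01 and 4.88 FPKM (0.25).

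Removal and export of conjugates was represented by 2 further lists. Among 3 hydrolases, Arsb, a lysosomal sulfatase, had 3.24 FPKM in the control and 5.19 FPKM in the knockout (0.64, interval 0.33 to 0.99), which counted as higher but not with a pseudocount of 1 (0.53) or after removal of the length trend (0.52), Gusb, the lysosomal beta-glucuronidase, had 95.4 and 94.3 FPKM (-0.04), and Arsa had 23.3 and 19.7 FPKM (-0.26). Of 6 efflux pumps, 2 were lower (3 after removal of the length trend and 0 with equal FPKM sums or a pseudocount of 1) and none was higher (median -0.42), beside 13.2% and 12.8% of all genes. The lower ones were Abcc2, which pumps conjugates into bile, with 3.14 and 2.00 FPKM (-0.65), and Abcc6 with 1.45 and 0.867 FPKM (-0.71), which passed the filter only through its control value. Abcc3, which exports glucuronides toward the blood, was the most abundant with 37.5 and 30.3 FPKM (-0.33), and Abcc4 had 6.68 and 7.76 FPKM (0.19).

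Enzymes of other conjugation reactions moved in the same direction as the 4 families. Of 10 measured, 8 passed the filter and 7 of these were lower, with a median of -0.92, beside 13.2% of all genes. After removal of the length trend 5 were lower, beside 11.1% of all genes. Gnmt, glycine N-methyltransferase, had 77.9 FPKM in the control and 29.3 FPKM in the knockout (-1.43), Inmt, which methylates indoles, had 28.6 and 6.92 FPKM (-2.06), and Baat, which joins bile acids to taurine or glycine, had 5.00 and 1.89 FPKM (-1.39). As3mt, which methylates arsenic, had 8.67 and 6.06 FPKM (-0.54) and did not pass the threshold, and Nat1 and Nat8 were listed at 0. Regulators of these genes differed among themselves. Of 8 that passed the filter, 3 were lower and 3 were higher (2 after removal of the length trend), beside 13.2% and 12.8% of all genes. Hnf4a, the hepatocyte nuclear receptor, had 5.99 and 2.79 FPKM (-1.10, interval -1.45 to -0.82), the bile acid receptor gene Nr1h4 had 3.67 and 1.76 FPKM (-1.05), and Nr1i3, which encodes the xenobiotic receptor CAR, had 1.64 and 0.996 FPKM (-0.69) and passed the filter only through its control value. Ahr, the aryl hydrocarbon receptor, had 7.06 and 15.0 FPKM (1.05, 0.88 to 1.24), its partner Arnt had 9.68 and 17.3 FPKM (0.81), and Ppara had 1.84 and 2.90 FPKM (0.61). Nfe2l2, which encodes NRF2, the factor known for activating GST genes under oxidative stress, had 263 and 257 FPKM (-0.06). Over all 8 lists, 48 of 54 measured genes passed the filter, as the plot of these lists shows. Of these, 14 were lower and 4 were higher (median -0.20), beside 13.2% and 12.8% of all genes. After removal of the length trend 13 were lower and 2 were higher, beside 11.1% and 9.99% of all genes. With equal FPKM sums the lower calls of Gss, Slc26a1, Abcc2, Abcc6, Nr1i3, Nat2 and Glyat were lost, and Ugdh at 0.63 and Slc7a11 at 0.62 counted as higher. With a pseudocount of 1 the lower calls of Gss, Slc26a1, Abcc2, Abcc6, Nr1i3 and Nat2 and the higher calls of Arsb and Ppara were lost.

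**Figure D4:**
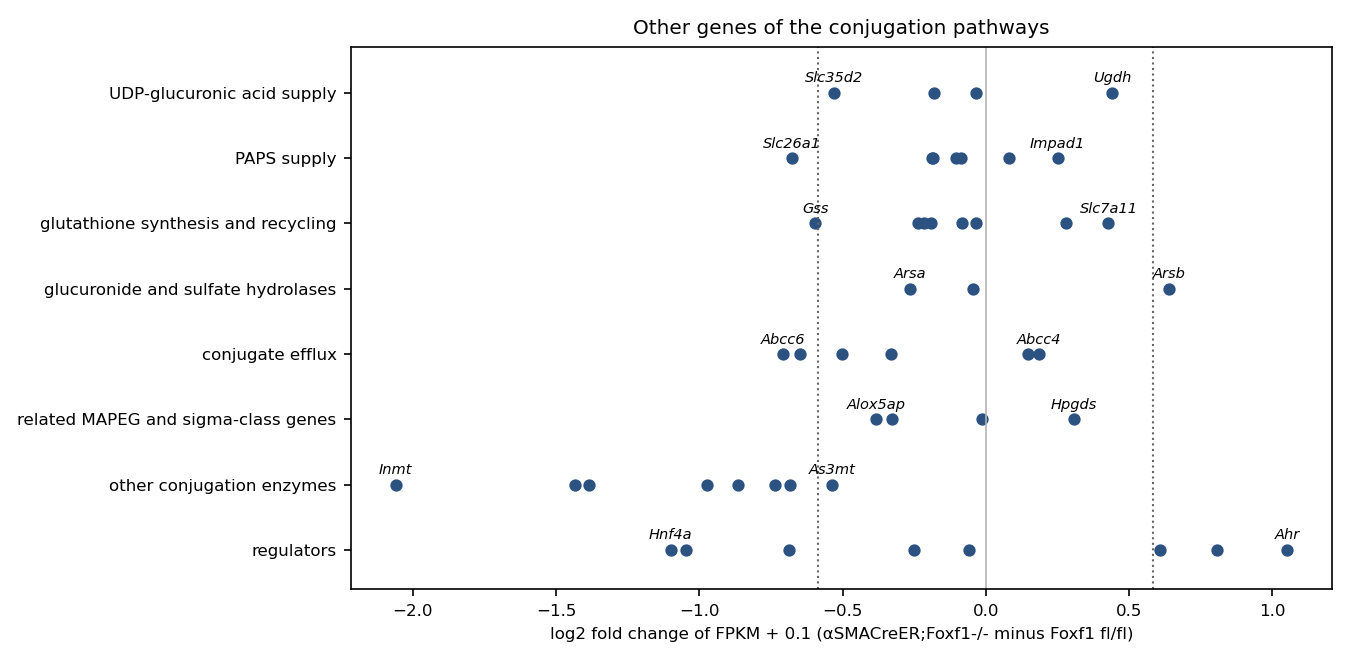
Log2 fold change (knockout minus control, log2(FPKM + 0.1)) of each pathway gene with a mean of at least 1 FPKM, in 8 lists, with dotted lines at 1.5-fold and names for the highest and lowest gene of each list. The supply lists for UDP-glucuronic acid, PAPS and glutathione gather around 0, other conjugation enzymes lie below 0, and regulators spread to both sides.

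Sequence before the transcription start was examined in RefSeq windows (GRCm38.p6) from 250 bases before to 50 bases after the start, of which 69 belonged to 57 of the 65 genes. Exact letters of 10 motifs were searched on both strands in these and in all 32851 windows, where N is any base. GTTAATNAT, letters that resemble the site of the liver factors of the HNF1 family, occurred in 8 of 69 windows (11.6%) and in 0.801% of all windows. The 8 genes were Ugt1a1, Ugt1a9, Ugt1a10, Sult1d1 and Sult2a3 to Sult2a6. The bases around the site are much alike in Sult2a3 to Sult2a6, and also in Ugt1a9 and Ugt1a10. The 8 windows are therefore not independent, and these letters were chosen after matches had been seen. The difference between the shares was not tested. Of these genes, Ugt1a1 and Ugt1a9 were lower, Sult1d1 was neither lower nor higher, and the others lay below the filter. Ugt1a6b, which was lower, and Ugt1a6a and Ugt1a7c, which were not, did not hold these letters, and Ugt1a6a holds the shorter GTTAAT. The sites of Ugt1a1, 44 bases before the start, and Ugt1a9, 94 bases before it, are shown with the motif in capitals, which reads on the opposite strand, because these are the Ugt1a entries with the most FPKM among the lower ones. For the letters TGACNNNGC of the antioxidant response element, through which NRF2 acts, the share was 5.80% of the 69 windows and 12.4% of all windows, and the holders were Gsta3, Gstm5, Gstm7 and Mgst1. The sites of Gsta3 and of Mgst1, whose letters read on the opposite strand, are shown with the letters in capitals because these are the abundant holders.
Ugt1a1 (chr1:88211890-88211948, plus strand): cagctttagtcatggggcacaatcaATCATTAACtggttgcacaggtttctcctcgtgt
Ugt1a9 (chr1:88070660-88070718, plus strand): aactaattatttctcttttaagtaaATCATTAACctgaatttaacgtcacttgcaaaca
Gsta3 (chr1:21240439-21240497, plus strand): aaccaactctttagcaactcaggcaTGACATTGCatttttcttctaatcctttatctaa
Mgst1 (chr6:138140446-138140504, plus strand): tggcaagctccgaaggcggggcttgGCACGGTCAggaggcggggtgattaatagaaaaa
The other motifs, with the share of the 69 windows and then of all windows, were GTTAAT, which overlaps the HNF1-like letters (20.3% and 7.10%), the full palindromic HNF1 site (1.45% and 0.0396%), TTGCNNAA (20.3% and 10.8%), TATAAA (21.7% and 13.6%), CCAAT (42.0% and 37.4%), GCGTG (20.3% and 32.4%), CAAAGTCCA (1.45% and 0.475%) and the DR1 direct repeat of nuclear receptors (0% and 0.0396%). These matches describe letters in a window and show no binding.

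For comparison, the cytochrome P450 genes, which oxidise many of the compounds that are then conjugated, had 32 of 47 lower and 1 higher (median -0.93), where 7 of the 47 passed the filter only through the control library and 1 only through the knockout library, beside 13.2% lower and 12.8% higher among all genes. Secreted proteins made by hepatocytes, a list of 32 genes of which 31 were measured, were lower in 31 of 31, with a median of -1.56, a range of -2.07 to -1.01, and summed FPKM of 8885 in the control and 3371 in the knockout. Of the 42 conjugation genes, 34 lay above the median of this list, and 8 lay below it, namely Gsta1, Gsta3, Gstm6, Ugt2b5, Ugt3a1 and the 3 Sult2a genes. The 34 genes above this median included the 8 that were neither lower nor higher, and the values of the 2 lists overlapped. The differences between these lists were not tested.

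Fold change also varied with transcript length across all genes. With all genes in 10 groups of equal number by their longest transcript, the shortest group (73 to 983 bases) had a median of -0.40 with 38.4% lower, and the longest group had a median of 0.42 with 3.23% lower. The conjugation genes lay mostly in the shorter groups, with 6 genes in group 1, 14 in group 2 and none in the longest. In group 2 (983 to 1592 bases) 10 of 14 conjugation genes were lower with a median of -0.88, where all genes had a median of -0.32 and 25.1% were lower. In group 4 (2082 to 2588 bases) 9 of 10 were lower with a median of -1.0, where all genes had -0.11 and 14.2%. In group 6 (3067 to 3592 bases) 1 of 3 was lower with a median of 0.27, where all genes had 0.019 and 6.86%. The length trend was removed by subtracting from each value the median of all genes in its length group. For this step 20 groups were used, by the longest transcript of any kind. After the removal 27 of 42 were lower, beside 11.1% of all genes, and the median was -0.68. The UGTs, with longer transcripts, kept their count (11 of 13, median -1.06), and the count of GSTs was 10 of 20 (median -0.60). Of 25 genes with under 5% of their 75-base stretches shared, a limit set after the data were seen, 21 were lower (median -0.98), and of 17 genes with more shared, 13 were lower (median -0.90). The part of shared reads in the values was not tested.

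**Figure D5:**
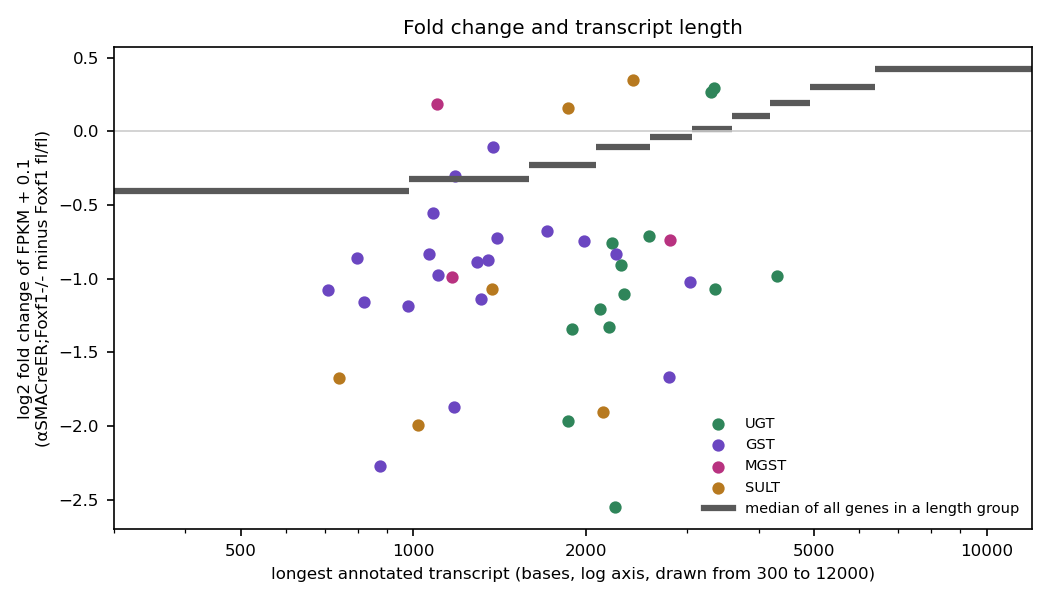
Log2 fold change (knockout minus control, log2(FPKM + 0.1)) of each conjugation gene with a mean of at least 1 FPKM against its longest annotated transcript in bases (log axis), coloured by class, with grey bars for the median of all genes in each of 10 length groups. The grey bars run from -0.40 in the shortest to 0.42 in the longest group, and most conjugation genes lie below the bar of their own group.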

How the data were processed

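RNA from adherent liver cells was sequenced in 2 pooled libraries, 1 per genotype, with 75-base reads. The values used are the gene-level FPKM that the authors deposited, made by TopHat alignment and Cufflinks, with 38320 Ensembl entries per library. The submitters' processing notes name mm10 and DESeq, which belongs to a separate quantification not used here. Of the entries, 36490 (95.2%) had a symbol in GENCODE M21, and repeated symbols were represented by their most abundant entry. All 65 conjugation genes overlapped their GENCODE coordinates. Sult5a1 and Ugt2a1 were not analysed here, and 1 gene of another conjugation reaction is not reported here.

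Knockout values were divided by the median ratio of 11871 genes with at least 1 FPKM in both libraries (1.0184). A pseudocount of 0.1 was added before log2, and genes with a mean of at least 1 FPKM were compared with a 1.5-fold threshold. Since FPKM are not counts, no count model was fitted. Library sizes (9600000 and 11320000 reads) were inferred from steps between the lowest values, taking fragments to be 200 bases long. This estimate is rough, since 45.2% and 48.5% of 1285 and 1474 low values came within 0.1 of a whole read. Counting intervals place reads on the longest coding transcript and cover counting error only. Stretches of 75 bases were compared over GENCODE M21 transcripts. Promoter windows came from RefSeq (GRCm38.p6), and their motifs were chosen after matches had been seen, the HNF1-like letters after a version 1 base longer had been searched.

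Genes were named if they were conjugation genes with a mean of at least 5 FPKM, the largest rise or fall of a class or list, the most abundant gene of a list, or near-identical copies. Further members and pathway genes were named after their values were seen, to show their roles. The members and lists were chosen with earlier results of these data known. Alternatives changed the pseudocount, scaling, filter, threshold, length trend, repeated entries, the Ugt1a division and the reference list. The procedure was tested on simulated data. Tools were numpy 2.4.6, scipy 1.17.1, pandas 2.3.3 and matplotlib 3.10.9 under Python 3.11.15.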

Additional observations from a re-analysis of the deposited data

Results flagged for a closer look

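Sult2a-ps1, an unprocessed pseudogene of the sulfotransferase family at chr7:13721079-13722465 (GENCODE M21, GRCm38) that was left out because it is not protein-coding, was listed at 0 FPKM in the control library and at 0.770 FPKM in the knockout library. It drew attention as a signal outside the genes compared. Of 4 sulfotransferase pseudogene entries, the other 3 were at 0 in both libraries. Its value was not tested, and it lies below the filter of 1 FPKM.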

How the results depend on the processing

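The lower count of 34 of 42 became 19 at a 2-fold threshold and 21 of 25 among genes with under 5% of stretches shared, a choice added after the data were seen. It was 28 with equal FPKM sums, which move the median of all genes to 0.20, and 27 after removal of the length trend. The count was 32 both at a pseudocount of 1 and where the counting interval was required. With Ugt1a entries summed it was 31 of 38, and at a mean of at least 5 FPKM it was 23 of 28. Without a filter, 39 of 65 were lower, 4 were higher instead of 0, and the SULT median was 0. The share of all genes lower was 8.90% with equal FPKM sums, 11.1% without the length trend and 10.7% at a pseudocount of 1. It was 13.2% with Ugt1a entries summed, 11.1% at a mean of at least 5 FPKM and 8.85% without a filter, where 10.5% were higher. With the counting interval required, 1436 of the 12692 genes compared were lower. For the 2-fold threshold no share of all genes is given. Values past 1.5-fold changed sign only relative to the hepatocyte secreted proteins, which by construction adds 1.56 to every value. There 2 of the 42 were lower and 21 higher, against 1.39% and 93.6% of all genes, and the medians were 0.50 for UGT, 0.68 for GST, 0.83 for MGST and 0.19 for SULT. In that setting the log2 fold change was 0.38 for Gsta4, 0.84 for Gstk1, 0.68 for Gstm1, 0.73 for Gstm2, 0.42 for Gstm3, 0.89 for Gstm4, 0.40 for Gstp1, 0.70 for Gstp2, 0.49 for Gstp3, 0.59 for Gstt1, 0.54 for Gstz1, 0.57 for Mgst1, 0.83 for Mgst2, 0.49 for Sult1a1, 0.81 for Ugt1a1, 0.66 for Ugt1a6b, 0.24 for Ugt1a9 and 0.22 for Ugt2b36. Among list genes it was 0.86 for Abcc6, 0.21 for Alb, 0.90 for Cd3g, 0.97 for Clec4f, 0.98 for Epcam, 0.13 for Gnmt, 0.97 for Gss, 0.46 for Hnf4a, 0.22 for Hp, 0.25 for S100a8, 0.22 for S100a9 and 0.89 for Slc26a1. Of 74 named genes, equal sums moved 29 and the length trend 27 past their counting interval. Among those of these 74 genes that were under 1.5-fold, the sign changed with equal sums for 4 (Gstm7 at 0.080, Gusb at 0.15, Nfe2l2 at 0.14 and Slc35b2 at 0.0070) and without the length trend for 8 (Gstm7 at 0.19, Gsto1 at 0.047, Gusb at 0.018, Nfe2l2 at 0.036, Abcc4 at -0.15, Impad1 at -0.11, Slc7a11 at -0.062 and Stab2 at -0.093). Further list genes outside the 74 also changed sign. With equal sums they included Ugp2 (0.013), Slc35d1 (0.15), Papss1 (0.10), Gclm (0.11) and Ltc4s (0.18). Without the length trend they included Papss2 (-0.012) and Ltc4s (0.39). No paired analysis was possible because there was only 1 pooled library per genotype, and for the same reason no replicate could be left out. Depth limits genes under 1 FPKM, which rest on few reads.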
